A study of Homo sapiens with 9 samples.

Results

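The comparison described here was between HCT116 cells given activin and then hepatocyte growth factor (HGF) and HCT116 cells given activin alone, with 3 libraries in each group. HCT116 is a human colorectal carcinoma cell line. The activin group received activin A at 100 ng/mL for 5 days, and the activin + HGF group received the same activin course followed by HGF at 20 ng/mL for another 5 days. The 3 untreated control libraries served to say whether a gene that moved after HGF had already moved with activin. The labels do not say whether activin stayed in the medium during the HGF course, how long the controls were cultured, or whether the replicates were separate cultures, so that the addition of HGF and the longer culture cannot be told apart and the p-values measure only the spread between these libraries. Total RNA depleted of ribosomal RNA was sequenced. All 33861 genes of the deposited table entered the comparison, and 20988 of them had enough counts to be tested.

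The libraries held between 57453977 and 77016167 counts, with 63224256 to 64728266 in the activin group and 69559061 to 74314387 in the activin + HGF group. Levels are given as CPM, counts scaled to a common library size, after TMM scaling, a method that sets library sizes from the bulk of the genes, and 3 counts correspond to at most 0.0551 CPM. The TMM factors differed between the groups, at 1.17, 0.988 and 1.16 in the activin libraries against 0.783, 0.926 and 0.899 in the activin + HGF libraries. A library stood apart in each group. Of all tested genes, 8.43% in activin replicate 2 and 10.4% in activin + HGF replicate 1 lay at least 1 log2 unit from the mean of the other 2 libraries, against 3.09% to 4.64% in the other treated libraries. The epithelial markers of the line were present, with EPCAM at 186, 228 and 204 CPM in the activin libraries and 495, 371 and 388 CPM after HGF.

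HGF is a secreted growth factor that binds the receptor tyrosine kinase MET and signals through the RAS-ERK and PI3K pathways, and it is known as a mitogen and motility factor of epithelial and liver cells. Activin is a ligand of the TGF-beta family that signals through SMAD2 and SMAD3 and is used to direct stem cells to definitive endoderm. Type I and type III interferons are antiviral cytokines. They act through the transcription factor complex ISGF3, which binds the interferon-stimulated response element (ISRE) in the promoters of antiviral genes, and many chemokine promoters hold sites of the transcription factor NF-kB.

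After HGF, the type III interferon genes IFNL1, IFNL2 and IFNL3, 26 of 55 tested interferon-stimulated effector genes and 8 of 22 chemokine and cytokine genes fell, several of them to or below the control level. The immediate-early genes FOS, JUN and JUNB rose further, and 7 of 23 tested genes of plasminogen activation and matrix degradation rose, 2 of them extending a rise with activin. Of 52 DNA replication genes 8 fell, of 40 mitotic genes 10 fell, and 8 of 18 heat shock chaperone genes and 8 of 32 cholesterol synthesis genes rose. At an adjusted p under 0.05 and at least a 2-fold change (absolute log2 fold change of at least 1), 1697 genes changed, which was 8.09% of the tested genes. Of these, 813 rose (3.87%) and 884 fell (4.21%), with a median absolute log2 fold change of 1.49. The median log2 fold change of all tested genes was -0.04. The 3 activin libraries and the 3 activin + HGF libraries did not overlap in 98.9% of the called genes and in 32.7% of all tested genes.

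The balance of rises and falls depended on the scaling. With library totals in place of TMM factors, the median log2 fold change of all genes moved by -0.34, and 319 genes rose while 1805 fell. With upper quartile factors, 639 rose and 1047 fell. A gene is therefore described below as risen or fallen relative to the bulk of the genes, and the counts or medians of several gene lists are given with both scalings.

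The 1697 genes were divided by what activin alone had done to them. A gene was termed reversed where activin had moved it the other way past the same thresholds, extended where activin had moved it the same way, and newly changed where it had not passed with activin. There were 292 reversed genes (17.2%), 149 extended genes (8.78%) and 1256 newly changed genes (74.0%). Against the control, 4519 genes were called after HGF (21.5%) and 2394 with activin (11.4%). Among the reversed genes, 235 were not called against the control after HGF and are termed returned, 45 were still displaced in the direction of activin and are termed partly reversed, and 12 had passed the control level and are termed overshot. Of the newly changed genes, 664 had moved by less than 0.5 log2 units with activin. The comparison with activin and that of activin with the control share the activin libraries, so that an error in those libraries moves a gene in opposite directions in the 2 comparisons, which favours the reversed class.

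**Figure D1:**
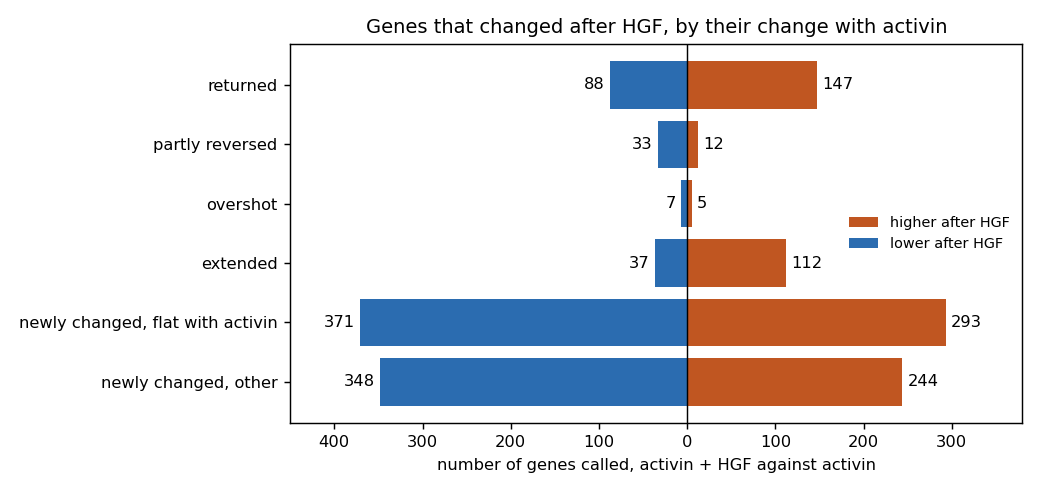
Number of genes called between activin + HGF and activin (horizontal axis, rises to the right and falls to the left) in each class of prior response to activin (vertical axis). The newly changed classes hold most genes in both directions, with 537 rises and 719 falls, against 164 and 128 in the 3 reversed classes together and 112 and 37 in the extended class.

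Seen from the activin response, most of its genes were not called after HGF at these thresholds, although a gene not called may still have moved. Of the 1424 genes that activin had raised (6.78% of the tested genes), 128 moved back after HGF (8.99%), 112 moved further (7.87%) and 1184 were not called (83.1%). Of the 970 genes that activin had lowered (4.62%), 164 moved back (16.9%), 37 moved further (3.81%) and 769 were not called (79.3%). Against the control, 1026 of the raised genes and 506 of the lowered genes were still called after HGF, while 391 and 459 were not called. The median log2 fold change after HGF was -0.08 in the raised genes and 0.34 in the lowered genes.

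The promoters of 6 genes are shown because these genes are among the reversed interferon-stimulated and chemokine genes, each holds an ISRE or NF-kB core, and CXCL10 holds both. Each sequence runs from 250 bases before to 50 bases after the transcription start of the RefSeq annotation of GRCh38.p14, 5′ to 3′ on the strand of the gene, and the capitals mark matches on either strand to the ISRE core GAAANNGAA or to the NF-kB core GGANTTTCC. Overlapping matches run together. Other elements were also searched for on both strands and are not marked: AP-1 (TGANTCA), forkhead (TGTTTAC), E2F (TTTCCCGC or TTTGGCGC), ETS (CCGGAAGT) and TCF (CTTTGAT). The windows are chr10:89392373-89392672 (+) for IFIT1, chr10:89327747-89328046 (+) for IFIT3, chr1:1013247-1013546 (+) for ISG15, chr4:76023448-76023747 (-) for CXCL10, chr4:73869143-73869442 (+) for CXCL1 and chr4:73740319-73740618 (+) for CXCL8.
IFIT1: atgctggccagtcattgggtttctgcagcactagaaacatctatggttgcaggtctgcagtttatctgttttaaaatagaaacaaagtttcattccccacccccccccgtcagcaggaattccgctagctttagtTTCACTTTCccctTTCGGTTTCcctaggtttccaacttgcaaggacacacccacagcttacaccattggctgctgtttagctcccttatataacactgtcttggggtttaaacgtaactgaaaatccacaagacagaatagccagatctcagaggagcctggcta
IFIT3: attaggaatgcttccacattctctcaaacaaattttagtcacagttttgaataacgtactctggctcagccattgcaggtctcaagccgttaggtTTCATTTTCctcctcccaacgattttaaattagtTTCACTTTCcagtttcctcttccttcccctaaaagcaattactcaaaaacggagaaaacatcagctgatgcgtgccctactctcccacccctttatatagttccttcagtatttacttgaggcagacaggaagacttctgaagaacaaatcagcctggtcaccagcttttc
ISG15: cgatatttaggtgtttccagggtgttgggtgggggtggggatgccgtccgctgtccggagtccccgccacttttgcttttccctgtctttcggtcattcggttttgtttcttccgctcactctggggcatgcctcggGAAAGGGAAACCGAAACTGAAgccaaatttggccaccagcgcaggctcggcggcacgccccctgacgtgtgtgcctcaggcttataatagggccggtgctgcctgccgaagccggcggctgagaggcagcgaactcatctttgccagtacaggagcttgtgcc
CXCL10: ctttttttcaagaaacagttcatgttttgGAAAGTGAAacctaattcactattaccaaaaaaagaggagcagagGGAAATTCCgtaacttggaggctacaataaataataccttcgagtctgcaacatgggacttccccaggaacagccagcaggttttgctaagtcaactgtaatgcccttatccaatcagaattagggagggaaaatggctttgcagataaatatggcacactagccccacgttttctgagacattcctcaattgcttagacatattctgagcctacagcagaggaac
CXCL1: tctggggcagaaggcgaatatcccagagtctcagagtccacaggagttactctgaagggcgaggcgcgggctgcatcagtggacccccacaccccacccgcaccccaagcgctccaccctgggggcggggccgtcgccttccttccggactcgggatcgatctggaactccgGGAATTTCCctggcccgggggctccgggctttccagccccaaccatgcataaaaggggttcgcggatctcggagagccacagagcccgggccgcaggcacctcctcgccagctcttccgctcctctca
CXCL8: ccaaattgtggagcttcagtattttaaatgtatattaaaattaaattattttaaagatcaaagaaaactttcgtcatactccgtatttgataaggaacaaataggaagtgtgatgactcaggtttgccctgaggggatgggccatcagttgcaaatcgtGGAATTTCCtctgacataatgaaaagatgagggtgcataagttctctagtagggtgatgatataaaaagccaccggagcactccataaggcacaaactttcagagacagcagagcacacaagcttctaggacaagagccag

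IFIT1 and IFIT3 each held 2 ISRE cores, whose first bases lay 115 and 102 bases before the start in IFIT1 and 155 and 121 bases before it in IFIT3. In ISG15, 3 overlapping cores began 113, 107 and 101 bases before the start. CXCL10 held an ISRE core at 221 bases and an NF-kB core at 176 bases, and NF-kB cores began 78 bases before the start of CXCL1 and 91 bases before that of CXCL8. CXCL8 also held an AP-1 match at 137 bases and a TCF match at 194 bases, and the windows of the other genes held no match to the unmarked elements.

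The type III interferons, which signal through the receptor chains IFNLR1 and IL10RB on epithelial cells, appeared with activin and were at or near 0 after HGF. IFNL1 (chr19:39296407-39298673 in the coordinates of the table) was at 0 in the 3 control libraries, at 13, 19.0 and 12.5 CPM in the activin libraries and at 0.0735, 0 and 0 CPM in the activin + HGF libraries (adjusted p = 0.00177). IFNL2 was at 14.4, 18.0 and 14.5 CPM with activin and at 0 in every library after HGF, at least 283-fold lower (adjusted p = 0.000493), and IFNL3 went from 13.5, 21.8 and 15.4 CPM to 0, 0.116 and 0 CPM. IFNL2 and IFNL3 are near-identical copies whose reads may have been split between them in either way, and their separate values are uncertain. The type I interferon gene IFNB1 was at 1.44, 1.94 and 3.05 CPM with activin and at 0 in the 3 activin + HGF libraries, at least 38.8-fold lower (adjusted p = 0.00616). Bounds here and below are set against 3 counts in each activin + HGF library. Because 35.0% of the deposited counts from 1 to 40 were multiples of 4, the bounds are approximate and may be too high.

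The receptor genes differed from the ligands. IFNAR1, a chain of the type I interferon receptor, had not moved with activin and fell after HGF from 38.6, 26.9 and 41.2 CPM to 10.5, 13.7 and 13.4 CPM, a log2 fold change of -1.5 (SE 0.21, adjusted p = 0.00479). The type III receptor gene IFNLR1 was not called (log2 fold change 0.18, adjusted p = 0.53). In the list of 15 interferon and receptor genes, 11 were tested, of which 5 fell and none rose by the edgeR test. Their median log2 fold change was -1.5, the value of IFNAR1, and it was the same with the genes at 0 set at their bounds.

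The interferon-stimulated effectors, antiviral proteins that block viral RNA, translation or budding, fell as a group. Of 55 tested members of the list, 26 fell after HGF and 1, GBP2, rose, and activin had raised 21. The median log2 fold change was -1.19 (-1.17 with members at 0 set at their bounds) against -0.04 over all tested genes. The count of falls was 33 with library totals and 26 without the 2 libraries that stood apart. IFIT1, IFIT2 and IFIT3, neighbouring genes whose products bind viral RNA, ended below the control. IFIT1 was at 11.3, 9.44 and 9.87 CPM in the controls, at 89.2, 91.7 and 112 CPM with activin and at 4.0, 3.55 and 4.01 CPM after HGF. That was 25.3-fold lower than with activin (log2 fold change -4.66, SE 0.19, adjusted p = 1.77e-06) and lower than the control by a log2 fold change of -1.40.

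IFIT2 fell from 90.5, 60.3 and 117 CPM to 1.1, 1.57 and 1.43 CPM (log2 fold change -6.02, SE 0.32, adjusted p = 1.23e-05). IFIT3 fell from 38.3, 25.7 and 50.1 CPM to 0.220, 0.436 and 0.125 CPM (log2 fold change -7.17, SE 0.47, adjusted p = 6.8e-05). The groups of libraries lay far apart in both genes. DDX60, a helicase that promotes sensing of viral RNA, also ended below the control, falling from 30.5, 12.5 and 36.9 CPM to 2.02, 2.94 and 1.96 CPM (log2 fold change -3.53, adjusted p = 0.00192).

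Other effectors fell part of the way. OASL, an oligoadenylate synthetase-like protein, was at 4.38, 4.70 and 4.91 CPM in the controls, at 152, 260.5 and 156 CPM with activin and at 10.8, 22.2 and 23.7 CPM after HGF. Its log2 fold change after HGF was -3.32 (SE 0.33, adjusted p = 0.00112). ISG15, a ubiquitin-like protein that is conjugated to other proteins, went from 465, 778 and 554 CPM to 211, 150.5 and 150.3 CPM, a log2 fold change of -1.81 (SE 0.23, adjusted p = 0.00302), and stayed above the control by a log2 fold change of 2.10. HERC5, the ligase that conjugates ISG15, was not called against the control after HGF. It was at 95.0, 59.8 and 101 CPM with activin and 20.2, 17.2 and 15.6 CPM after HGF (log2 fold change -2.28, adjusted p = 0.00112).

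The RNA sensors IFIH1 (MDA5) and DDX58 (RIG-I) were in the returned class, that is, not called against the control after HGF. IFIH1 fell from 38.8, 27.5 and 36.8 CPM to 6.94, 7.18 and 9.14 CPM (log2 fold change -2.15, SE 0.23, adjusted p = 0.00177), and DDX58 fell from 55.1, 26.3 and 63.8 CPM to 4.74, 11.6 and 9.89 CPM (log2 fold change -2.47, SE 0.40, adjusted p = 0.0067). Not every interferon-response gene moved back. IRF7, the factor that amplifies interferon transcription, stood at 29, 41.9 and 26.8 CPM with activin and at 35.8, 36.4 and 34.9 CPM after HGF, against a mean of 3.03 CPM in the controls (log2 fold change after HGF 0.13, adjusted p = 0.709). SOCS1, an inhibitor of JAK kinases, rose further from 5.10, 9.37 and 4.99 CPM to 19.2, 16.7 and 16.5 CPM (log2 fold change 1.43, SE 0.28, adjusted p = 0.0127). Over the 27 tested sensors and signalling genes, 5 fell, 1 rose and 21 were not called, with a median log2 fold change of -0.34, and with library totals 7 fell and the median was -0.67. None of the 20 tested genes of MHC class I antigen presentation was called by the edgeR test, with a median of 0.14 (-0.22 with library totals).

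**Figure D2:**
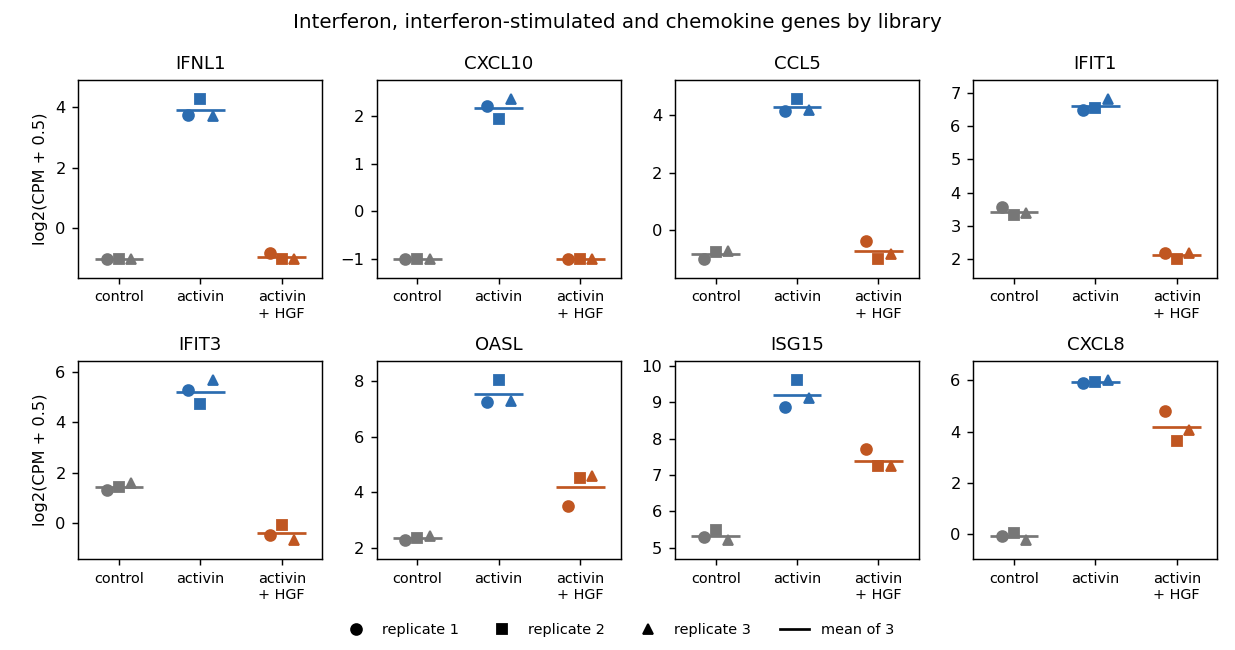
Level of 8 interferon, interferon-stimulated and chemokine genes in the 9 libraries, as log2(CPM + 0.5) on the vertical axis by group on the horizontal axis, with a symbol for each replicate number and a line at the mean of 3. In each panel the activin libraries lie above both other groups; IFIT1 and IFIT3 after HGF lie below the controls, while OASL, ISG15 and CXCL8 after HGF lie between the controls and activin.

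Among 22 tested chemokine and cytokine genes, 8 fell after HGF, 1 rose and 13 were not called, and activin had raised 13. CXCL10, a ligand of CXCR3 that attracts T cells, was at 4.17, 3.35 and 4.64 CPM with activin and at 0 in the other 6 libraries, at least 73.5-fold lower after HGF (adjusted p = 0.0021). CCL5 fell from 17.1, 23.3 and 17.7 CPM to 0.257, 0 and 0.0624 CPM (log2 fold change -7.56, adjusted p = 0.00274). The neutrophil chemokines fell only part of the way. CXCL1 fell from 15.0, 21.9 and 18.8 CPM to 2.41, 1.35 and 2.37 CPM (log2 fold change -3.18, SE 0.30, adjusted p = 0.000946). CXCL8 was at 0.457, 0.550 and 0.360 CPM in the controls, at 59.9, 60.3 and 63.6 CPM with activin and at 27.2, 12.1 and 16.1 CPM after HGF (log2 fold change -1.73, SE 0.28, adjusted p = 0.00699). CSF2, the growth factor GM-CSF, was the member that rose, from 0.312, 0.672 and 0.0532 CPM to 6.26, 2.66 and 1.5 CPM, at an adjusted p of 0.0482 that was kept under only 7 of 18 alternative settings. Of the NF-kB subunit and feedback genes, 2 of 22 fell and the median log2 fold change was -0.20, against 5 falls and a median of -0.53 with library totals.

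Promoter sequences were matched by symbol for 11595 of the 14543 tested protein-coding genes. The ISRE core was found in 6.26% of them, in 34.3% of the 70 matched promoters of genes reversed downward, in 31.0% of 42 that returned and in 32.0% of 25 that were partly reversed. The NF-kB core was found in 1.5% of all promoters and in 15.7% of those reversed downward. Within the effector list the ISRE core was in 85.7% of 21 promoters of genes that fell and in 72.7% of 22 of genes not called. In the chemokine list the NF-kB core was in 85.7% of 7 promoters of genes that fell and in 14.3% of 7 of genes not called. There the AP-1 element was in 28.6% and 57.1%. Other elements differed by class too. AP-1 was in 11.4% of the promoters reversed downward against 5.06% of all, and ETS in 17.5% of 40 reversed upward against 7.84% of all. These shares are descriptions of letters in the windows and carry no test.

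Other genes reversed downward had varied functions. DHRS2, a short-chain dehydrogenase, fell from 176, 159 and 220.4 CPM to 37.3, 21.5 and 27.0 CPM (log2 fold change -2.69, SE 0.26, adjusted p = 0.00105). CFB, a complement factor, fell from 19.2, 16.2 and 16.1 CPM to 3.64, 0.436 and 0.951 CPM (log2 fold change -3.36, SE 0.63, adjusted p = 0.0107). The keratin gene KRT17 fell from 9.99, 15.2 and 9.42 CPM to 1.08, 0.0872 and 0.359 CPM (log2 fold change -4.52, adjusted p = 0.0133). The rule that picked the named genes of each class required that the activin and activin + HGF libraries did not overlap.

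Among the genes reversed upward, heat shock chaperones formed a group. Of 18 tested, 8 rose after HGF and none fell by the edgeR test, activin had lowered 7, and the median log2 fold change was 0.97. HSPA8, the constitutive HSC70 chaperone, was at 1498, 1494 and 1537 CPM in the controls, at 202, 242 and 169.7 CPM with activin and at 9784, 2540.4 and 1834 CPM after HGF. Its log2 fold change after HGF was 4.53 (SE 0.57, adjusted p = 0.00322), with activin + HGF replicate 1 far above the other 2. HSPH1 rose from 39.7, 20.3 and 38.9 CPM to 189, 83.5 and 72.7 CPM (log2 fold change 1.80, SE 0.37, adjusted p = 0.0151), but its log2 fold change was 0.99 without the 2 libraries that stood apart. HSP90AB1, whose call was kept under 8 of 19 alternative settings, rose from 1460.0, 1564 and 1452 CPM to 4446, 2247 and 2395 CPM (log2 fold change 1.02, adjusted p = 0.0225). Without activin + HGF replicate 1 the count of risen chaperones was 6, without both libraries that stood apart it was 3, and with library totals it was 5 with 1 fall.

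Other genes reversed upward differed less between replicates. The mucosal keratin gene KRT13 was at 5.83, 3.69 and 6.74 CPM in the controls, at 0.448, 0.880 and 1.04 CPM with activin and at 6.70, 13.2 and 12.6 CPM after HGF (log2 fold change 3.77, SE 0.42, adjusted p = 0.00204). MRPS34, a mitochondrial ribosomal protein, rose from 23.5, 38.9 and 29.4 CPM to 124, 93.7 and 98.2 CPM (log2 fold change 1.78, SE 0.25, adjusted p = 0.00479). NTHL1, a DNA glycosylase of base excision repair, rose from 4.10, 7.49 and 5.15 CPM to 17.8, 18.8 and 17.7 CPM (log2 fold change 1.70, SE 0.24, adjusted p = 0.00479). The controls of NTHL1 were at 15.7, 14.9 and 13.4 CPM.

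In the list of ERK pathway feedback and target genes, the pathway on which MET converges, activin had raised 15 of 26 members, and after HGF 3 more rises were called and no fall by the edgeR test. These were the AP-1 subunits. FOS rose from 16.6, 24.8 and 15.0 CPM to 139, 79.7 and 49.9 CPM (log2 fold change 2.25, SE 0.36, adjusted p = 0.00676), JUN from 127, 191 and 133 CPM to 789, 355 and 341 CPM (1.72, SE 0.32, adjusted p = 0.0103) and JUNB from 355, 586 and 346 CPM to 1222, 729.5 and 724 CPM (1.06, SE 0.27, adjusted p = 0.0325). The call of JUN was lost without activin replicate 1, and that of JUNB was kept under only 10 of 19 alternative settings. DUSP6, the ERK phosphatase induced by ERK itself, was at 217, 237 and 226 CPM with activin and at 230.3, 292 and 246 CPM after HGF (0.18, adjusted p = 0.467). The median of the list was 0.28 with TMM scaling and -0.05 with library totals.

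The receptor of HGF itself was not called. MET was at 264, 129 and 243 CPM with activin and at 103, 179 and 160.1 CPM after HGF, and these ranges overlapped (log2 fold change -0.53, SE 0.28, adjusted p = 0.232). No member of the 16 genes of MET, its adaptors and the proteases and inhibitors that control HGF activation passed both thresholds by the edgeR test. SPINT1 and SPINT2, inhibitors of HGF-activating proteases (0.71 and 0.77, adjusted p = 0.0445 and 0.0336), and ST14, the protease matriptase (0.75, adjusted p = 0.0336), missed only the fold threshold. The HGF gene was at 0 in the activin libraries and at 0.220, 0 and 0 CPM after HGF, against 0.523, 4.85 and 5.6 CPM in the controls.

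Some matrix metalloproteinase genes, whose products degrade extracellular matrix, rose. Of 23 tested genes of plasminogen activation and matrix degradation, 7 rose and none fell by the edgeR test, with a median log2 fold change of 0.72. MMP1, the interstitial collagenase, was at 0.0653, 0.0446 and 0.0994 CPM in the controls, at 1.19, 0.176 and 1.08 CPM with activin and at 8.82, 4.54 and 5.13 CPM after HGF (log2 fold change 2.91, SE 0.61, adjusted p = 0.016), a call that was lost without activin replicate 1 or 3. MMP10, stromelysin-2, rose from 0.407, 0.672 and 0.639 CPM to 7.59, 3.40 and 3.52 CPM (log2 fold change 3.07, SE 0.73, adjusted p = 0.0246) and had not been called with activin. MMP14, the membrane-type enzyme that activates other metalloproteinases, rose from 28.0, 40.4 and 26.2 CPM to 91.7, 59.2 and 65.6 CPM (1.20, SE 0.24, adjusted p = 0.0131). TIMP1, the metalloproteinase inhibitor, rose as well, by a log2 fold change of 1.09 (SE 0.20, adjusted p = 0.0105). Of 19 alternative settings, 12 kept the call of MMP14, 13 that of TIMP1, 15 that of MMP10 and 17 that of MMP1. With library totals the risen count of the list was 4 and its median 0.34.

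Targets of SMAD signalling mostly stayed or rose. Of 21 tested SMAD target and ID genes, 5 rose and 1 fell, with a median log2 fold change of 0.90 (0.50 with library totals). PMEPA1, a SMAD-induced inhibitor of the pathway, went from 7.43, 9.62 and 7.31 CPM to 52.4, 24.5 and 23.6 CPM (log2 fold change 2.04, SE 0.32, adjusted p = 0.00616), and RHOB, a small GTPase, from 262, 411 and 258 CPM to 1414, 651 and 689.8 CPM (1.56, SE 0.30, adjusted p = 0.0123). LTBP2, a latent TGF-beta binding protein, was in the returned class and fell from 10.8, 10.5 and 9.45 CPM to 3.34, 4.86 and 3.99 CPM (-1.33, SE 0.23, adjusted p = 0.00794). Of 26 tested receptors, ligands and SMADs of the activin and TGF-beta family, 3 rose and none fell by the edgeR test. They were TGFB1, GDF15 and the inhibitory SMAD6. Without activin replicate 2 the count of rises was 5. With library totals none rose and 1 fell, and the median moved from 0.31 to -0.08.

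The genes that fell further or newly after HGF included genes of DNA replication and mitosis. Activin had lowered 27 of 52 DNA replication genes, after HGF 8 fell from the activin level and none rose by the edgeR test, and 38 were lower than the control after HGF, a direction in which 10.2% of all tested genes were called. Their median log2 fold change after HGF was -0.42, and the count of falls was 13 with library totals and 5 without activin + HGF replicate 1. CDC45, a subunit of the replicative helicase, was at 25.7, 30.5 and 26.9 CPM in the controls and fell from 8.83, 12.8 and 12.7 CPM to 1.87, 4.80 and 4.07 CPM (-1.67, SE 0.32, adjusted p = 0.0118). The helicase genes MCM2 to MCM7, which activin had lowered, were not called after HGF, with log2 fold changes between -0.44 and 0.24.

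Of 40 mitotic genes and known targets of FOXM1, a forkhead factor of the late cell cycle, 10 fell after HGF and none rose by the edgeR test, with a median log2 fold change of -0.68. The count of falls was 20 with library totals and 3 without activin + HGF replicate 1. MKI67, the proliferation marker Ki-67, was at 616, 542 and 548 CPM in the controls, at 235, 128 and 238 CPM with activin and at 72.9, 78.5 and 28.6 CPM after HGF (log2 fold change -1.74, SE 0.36, adjusted p = 0.0148), a call that was lost without activin replicate 1. HJURP, the chaperone that loads the centromeric histone CENP-A, had not moved with activin. It fell from 58.9, 55.3 and 53.6 CPM to 10.2, 12.9 and 12.1 CPM, 4.77-fold, with little spread in either group (log2 fold change -2.25, SE 0.16, adjusted p = 0.000167). HMMR, the hyaluronan-mediated motility receptor and spindle protein, fell from 30.0, 24.3 and 42.7 CPM to 4.06, 7.71 and 10.4 CPM (-2.13, SE 0.33, adjusted p = 0.00589).

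Of 30 cell cycle regulators, 8 fell and 2 rose, against 10 and 1 with library totals, and the median log2 fold change was -0.25 (-0.62 with library totals). CCNE2, cyclin E2 of the entry into S phase, was at 9.56, 9.89 and 13.4 CPM with activin and at 2.57, 2.02 and 1.95 CPM after HGF (log2 fold change -2.33, SE 0.24, adjusted p = 0.00129). The E2F factors E2F2, E2F7 and E2F8 fell by log2 fold changes of -1.48, -1.39 and -1.46. Of the CDK inhibitors, CDKN1C, p57, rose from 36.7, 57.7 and 26.0 CPM to 239, 103 and 101 CPM (1.88, SE 0.37, adjusted p = 0.013), and CDKN1A, p21, was not called (0.48, adjusted p = 0.127). The inhibitor genes CDKN2C and CDKN2D were also called (directions not given here), with calls kept under 16 and 7 of 19 alternative settings.

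Of 13 tested EGF family ligands and ERBB receptors, 2 fell after HGF and none rose by the edgeR test. Both were ligands of the newly changed class, and both had moved with activin without passing the thresholds. EREG, epiregulin, was at 609, 482 and 611 CPM in the controls and at 1146, 1007 and 1124 CPM with activin. That rise was not called. After HGF EREG was at 295, 389 and 417 CPM, below the controls, a log2 fold change from activin of -1.57 (SE 0.18, adjusted p = 0.0021). BTC, betacellulin, fell from 8.75, 7.64 and 10.1 CPM to 1.87, 3.34 and 3.88 CPM (-1.54, SE 0.29, adjusted p = 0.0115). AREG, amphiregulin, was not called (0.11, adjusted p = 0.67).

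Some cholesterol synthesis genes, targets of the SREBP factors, rose. Of 32 tested, 8 rose and none fell by the edgeR test, with a median log2 fold change of 0.61, and activin had lowered 7. INSIG1, the sterol-dependent anchor of SREBP and itself a target, had not moved with activin and rose from 35.0, 45.3 and 58.0 CPM to 996, 253 and 229 CPM (log2 fold change 3.42, SE 0.53, adjusted p = 0.00589). MSMO1, a sterol oxidase, rose from 70.5, 57.2 and 70.2 CPM to 606, 171 and 150.3 CPM (2.23, SE 0.46, adjusted p = 0.0147). Activin + HGF replicate 1 was the highest in both. Without it 3 members of the list rose, without both libraries that stood apart 5 rose, and with library totals 2 rose and 1 fell.

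Among the newly changed genes with the largest rises were also STX16, a syntaxin of Golgi traffic (29.1, 29 and 44.6 CPM to 226, 128 and 153 CPM, log2 fold change 2.30, SE 0.32, adjusted p = 0.00463), and DNAJB1, an HSP40 co-chaperone (185, 256 and 172 CPM to 2187, 446 and 489 CPM, 2.35, SE 0.54, adjusted p = 0.0212). IBA57, an iron-sulfur cluster assembly factor, fell from 13.6, 11.8 and 11.2 CPM to 1.29, 1.44 and 1.76 CPM (-3.02, SE 0.57, adjusted p = 0.0113). Its controls were at 12.9, 1.98 and 13.1 CPM. SLC16A13, a monocarboxylate transporter, fell by a log2 fold change of -2.72 (SE 0.50, adjusted p = 0.0105). GABARAPL1, an autophagy protein, had the least stable call of these (2.41, SE 0.63, adjusted p = 0.0334), kept under 10 of 19 alternative settings.

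**Figure D3:**
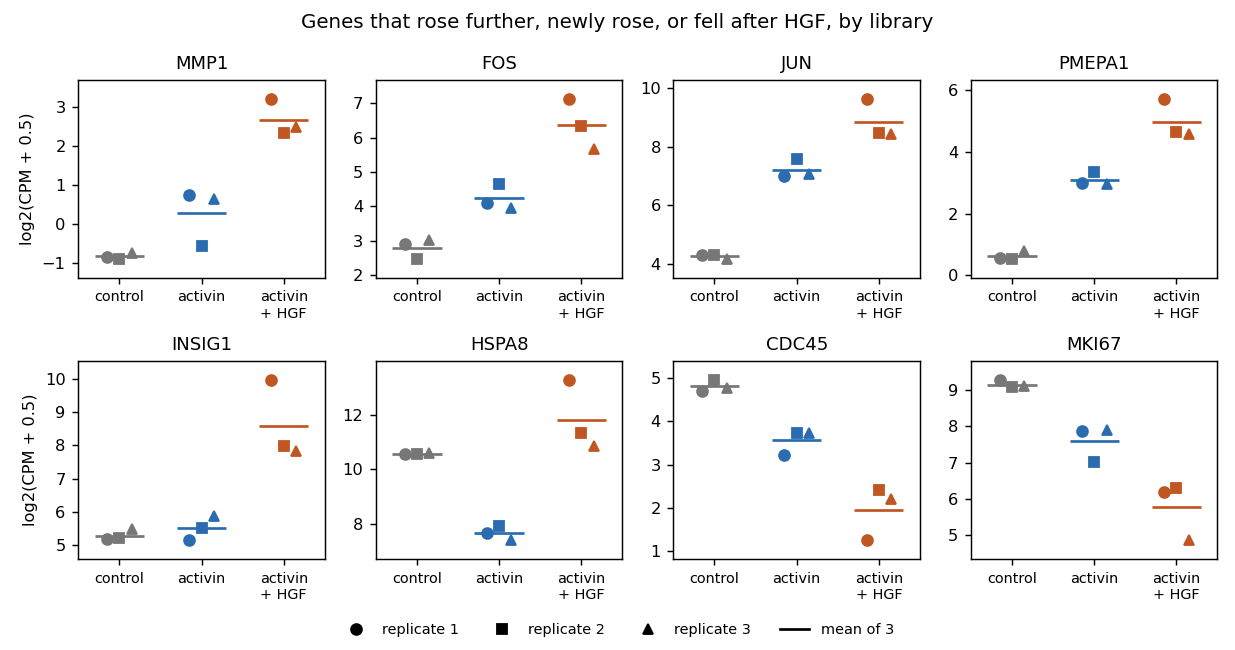
Level of 8 genes that rose further, newly rose, reversed upward or fell after HGF, as log2(CPM + 0.5) on the vertical axis by group on the horizontal axis, with a symbol for each replicate number and a line at the mean of 3. MMP1, FOS, JUN and PMEPA1 rise in both steps, INSIG1 rises only after HGF, HSPA8 falls with activin and then rises above the controls, and CDC45 and MKI67 fall in both steps.

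CXCR4, AFP and FOXM1, the genes the study followed, had counts that did not relate to their FPKM values as those of other genes did. FPKM is the count scaled by gene length and library size, so the ratio of count to FPKM should vary between libraries by nearly the same factor in every gene. Over the 6 treated libraries and 9576 genes with at least 20 counts and an FPKM of at least 1 in each, the highest ratio over the lowest lay between 1.18 and 1.24 in 9573 genes, with a median of 1.21. The 3 exceptions were FOXM1 at 1.00, CXCR4 at 1.00 and AFP at 2.88. All 6 CXCR4 counts in the treated libraries were multiples of 10, against 9.81% of counts of at least 1000, and the 3 AFP counts after HGF, 1900, 2700 and 2800, were multiples of 100. The counts of FOXM1 and CXCR4 held a constant ratio to FPKM, which is already scaled by library size, so their CPM scale them again. The CPM, fold changes and adjusted p-values of these 3 genes below were computed from the deposited counts and are uncertain. The calls of CXCR4 and AFP are included in the counts of all called genes, of the classes and of the endoderm and liver lists.

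From the deposited counts, CXCR4, the receptor of the chemokine CXCL12 and a marker of definitive endoderm, was at 152, 187 and 159.8 CPM with activin and at 1265, 940.2 and 1001 CPM after HGF (log2 fold change 2.68, SE 0.21, adjusted p = 0.000307), against 2.07, 1.9 and 1.32 CPM in the controls. AFP, the fetal liver protein alpha-fetoprotein, was at 0.393, 0.656 and 0.413 CPM and at 34.9, 39.3 and 43.7 CPM (6.33, SE 0.29, adjusted p = 3.37e-06). FOXM1 was at 992, 1556 and 1287 CPM and at 2357, 1736 and 1761 CPM, and did not pass the test (0.61, SE 0.20, adjusted p = 0.0706). The deposited FPKM values of FOXM1 were 90.82, 120.71 and 120.12 with activin and 159.37, 148.33 and 140.25 after HGF.

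Most other markers of endoderm and liver were not called. Of 10 tested definitive endoderm genes, CXCR4 was the 1 called, and GATA6, FOXA2 and EOMES had log2 fold changes of -0.01, 0.19 and -0.21. Of 24 tested liver transcription factors and plasma proteins, AFP and TBX3 rose. TBX3, a factor of hepatoblasts, rose by a log2 fold change of 1.03 (adjusted p = 0.0411), a call kept under 8 of 19 alternative settings. ALB, albumin, was at 0.516, 0.192 and 0.625 CPM with activin and at 1.19, 1.15 and 1.19 CPM after HGF (1.40, SE 0.76, adjusted p = 0.245).

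Genes of cytosolic ribosomal proteins moved in the same direction. After HGF all 79 had a positive log2 fold change, 33 were called as risen, and the median was 0.92. RPS28 had the largest, going from 124, 229.6 and 147 CPM to 643, 491 and 538 CPM (1.74, SE 0.23, adjusted p = 0.00406), and RPL38 rose from 316, 493 and 362 CPM to 1267, 879.7 and 981 CPM (1.42, SE 0.21, adjusted p = 0.00539). The nuclear genes of oxidative phosphorylation had a median of 0.64, with 9 of 68 called as risen, and the small nucleolar RNA host genes a median of 1.08, with 12 of 19 risen. With library totals the medians of these 3 groups were 0.58, 0.30 and 0.74, and the counts of rises were 6, 0 and 4. Without activin + HGF replicate 1 the counts were 15, 4 and 7, and without activin replicate 2 they were 51, 14 and 11.

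**Figure D4:**
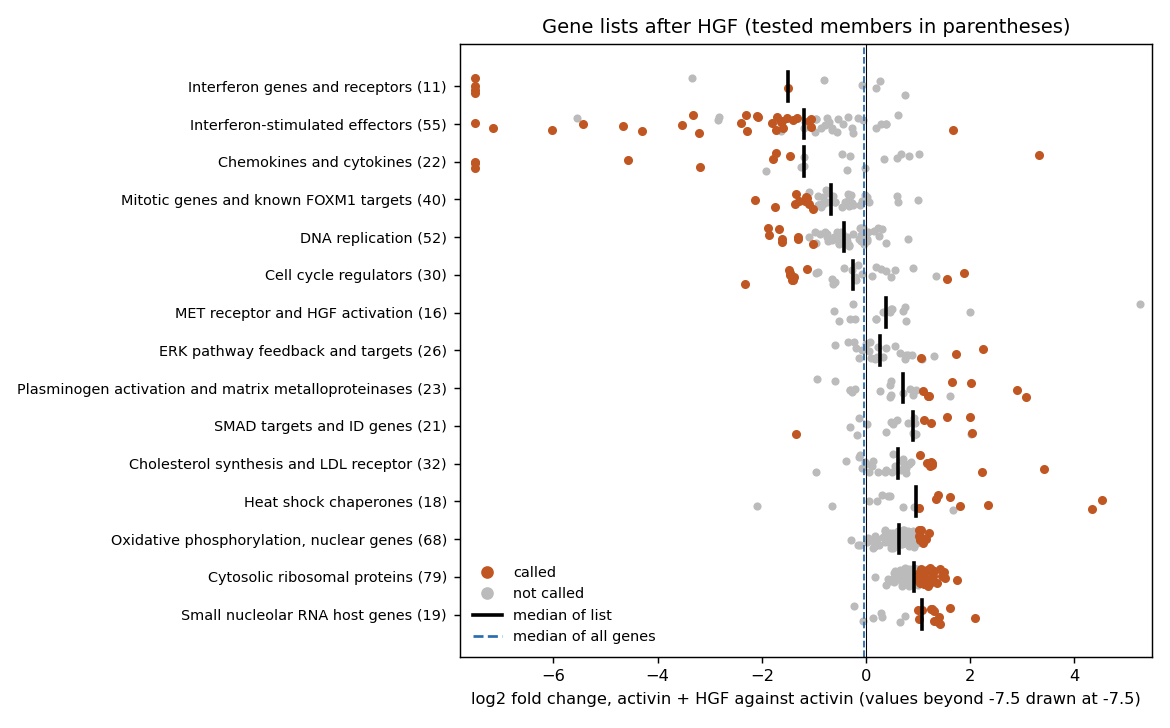
Log2 fold change of activin + HGF against activin (horizontal axis, values beyond the left edge drawn at that edge) for the tested members of 15 gene lists (vertical axis, number tested in parentheses), with called genes in orange, others in grey, a black bar at the list median and a dashed line at the median of all genes. Medians run from -1.5 in the interferon genes and -1.19 in the effectors to 0.92 in the ribosomal proteins and 1.08 in the small nucleolar RNA host genes.

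Gene length moved with the direction of change. Tested protein-coding genes were divided into 5 classes of equal size by exonic length. In the shortest class, of up to 2069 bases, 7.81% rose and 2.55% fell, with a median log2 fold change of 0.28. In the longest class, of at least 5834 bases, 1.07% rose and 6.20% fell, with a median of -0.22. The slope was also present within the activin group. Activin replicate 2 deviated from the mean of the 9 libraries by a median of 0.11 log2 units in the shortest class and -0.20 in the longest, like the activin + HGF libraries, while activin replicate 1 deviated by -0.21 and 0.21. With a fitted length correction in each library, 650 genes rose and 879 fell, 21 of the 79 ribosomal protein genes, 2 of the 68 oxidative phosphorylation genes and 8 of the 19 small nucleolar RNA host genes rose, and 24 of the 55 effectors fell. The part of length in the ribosomal protein and oxidative phosphorylation results was not tested further.

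**Figure D5:**
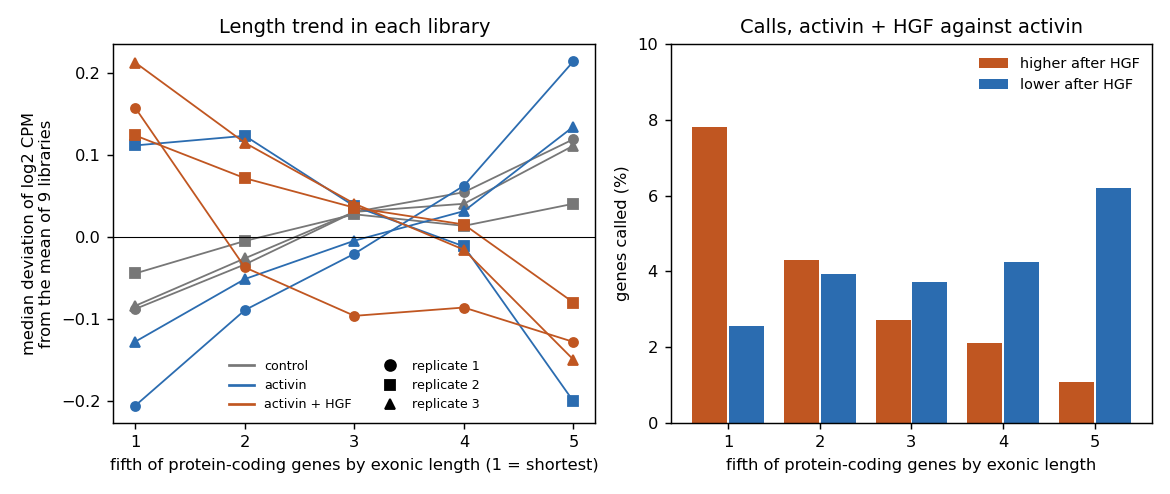
Left, median deviation of log2 CPM from the mean of the 9 libraries (vertical axis) in each of 5 classes of protein-coding genes by exonic length (horizontal axis, 1 is the shortest), a line for each library. Activin replicate 2 runs with the activin + HGF libraries, from 0.11 to -0.20, against the other activin libraries. Right, percent of genes of each class called higher or lower after HGF, with the rises going from 7.81% to 1.07% and the falls from 2.55% to 6.20%.

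By gene type, 174 of 1248 tested processed pseudogenes rose (13.9%) and 15 fell (1.20%), against 3.87% and 4.21% of all tested genes. Of 90 small nucleolar RNA genes, 11 rose (12.2%) and none fell by the edgeR test. Of 3700 long non-coding RNA genes, 71 rose (1.92%) and 205 fell (5.54%). Processed pseudogenes are copies of spliced transcripts, often of ribosomal proteins, and share reads with their parents, so their counts are uncertain.

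Markers of cell types that a culture of this line should not hold stayed low. Summed over its list, the fibroblast level was 56.0 to 62.6 CPM with activin and 47.0 to 53.7 CPM after HGF, the endothelial level 14 to 25.5 and 13.9 to 17.4 CPM, the leukocyte level 11.4 to 23.8 and 17.8 to 27.2 CPM, and the hepatocyte level 30.1 to 49.6 and 48.9 to 61.6 CPM. The leukocyte gene PTPRC was at most 0.149 CPM in any library, and CD68, which many cell types express, made up most of that sum. Of 5 tested fibroblast genes, 1 was called as risen, and no tested leukocyte, endothelial or hepatocyte gene was called by the edgeR test. The epithelial list summed to 2590 to 4337 CPM with activin and 4226 to 5495 CPM after HGF, and 1 of its 10 genes, EPCAM, was called, a call kept under 8 of 19 alternative settings. With library totals no gene of this list rose and 1 fell. In bulk RNA, fewer cells with a transcript and less of it per cell cannot be told apart.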

How the data were processed

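Gene counts and FPKM values for 9 libraries of HCT116 cells, 3 per group, were taken as the authors deposited them in 1 table. Per the submitters' processing notes, reads were trimmed with cutadapt 1.9, aligned with HISAT2 2.0.4 and assembled and quantified with StringTie 1.3.4d. The deposited counts were taken as not normalized, although those of FOXM1, CXCR4 and AFP did not relate to FPKM as in other genes. The deposited FPKM values were scaled by gene length and library size by the authors. The genome build was not given in the sources used here, and 97.3% of the gene identifiers were in GENCODE v29. Of the deposited counts from 1 to 40, 35.0% were multiples of 4. No columns of the authors' own comparisons were used.

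Groups and replicate numbers came from the sample labels. Genes were filtered with filterByExpr and tested with edgeR 4.0.16 in R 4.3.3 (quasi-likelihood F test, TMM factors, 1 mean per group over all 9 libraries, Benjamini-Hochberg adjustment over 20988 genes). Approximate SEs are the log2 fold change divided by the square root of F. Calls required an adjusted p below 0.05 together with a change of 1 log2 unit or more. CPM used the TMM-scaled library sizes, and bounds used 3 counts per library. On simulated counts, 59.1% of 200 genes changed by 2 log2 units were called, 5.33% of calls were false, and none was called where nothing had been changed. The simulated counts held no length trend and no library that stood apart, so these rates need not hold for the real libraries.

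The gene lists and the division into classes were chosen with earlier results of these data known. Named genes were FOXM1, CXCR4, AFP, MET and HGF, up to 5 protein-coding genes with the largest change in each class and direction (no overlap of libraries, mean FPKM not under 1 where higher), and in each list up to 8 called and 4 uncalled members. GATA6, FOXA2, EOMES, ALB, the MCM genes, IFNLR1, CDKN1A and EPCAM, where outside that rule, were added for their known roles after their values were seen. Promoters were read from RefSeq GRCh38.p14. Alternatives used DESeq2 1.42.0 and limma 3.58.1 (on log2(FPKM + 1) or log2(FPKM + 0.1)), other scalings and filters, and left-out libraries. Samples with the same replicate number did not deviate together (correlations from -0.0606 to 0.0882), so the numbers were not taken as pairs. Results that need certain genes are not reported here.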

Additional observations from a re-analysis of the deposited data

How the results depend on the processing

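Counts are given as all called genes, those that rose and those that fell, then reversed, extended and newly changed genes. The main test gave 1697, 813 and 884, then 292, 149 and 1256. Without a minimum fold the counts were 2698, 1555 and 1143, then 574, 319 and 1805. At an adjusted p under 0.01 they were 452, 267 and 185, then 100, 41 and 311. With library totals they were 2124, 319 and 1805, then 352, 101 and 1671. With only the 6 libraries of the 2 groups they were 677, 353 and 324, then 159, 75 and 443. DESeq2 gave 2519, 1035 and 1484, then 443, 180 and 1896. With limma on FPKM they were 660, 195 and 465, then 155, 41 and 464 at a pseudocount of 1, and 2270, 387 and 1883, then 453, 94 and 1723 at a pseudocount of 0.1. Leaving out 1 library gave 606 to 2418 calls, 230 to 1226 rises, 376 to 1192 falls, 140 to 418 reversed, 47 to 149 extended and 419 to 1855 newly changed genes, with the lowest total without activin replicate 1 (606), 866 without activin replicate 3, 1079 without activin + HGF replicate 1 and the highest without activin replicate 2. These fits have fewer libraries, and for the other settings the cause was not tested.

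With the replicate block the counts were 1366, 691 and 675, then 242, 127 and 997, and 1293 of the 1697 calls were kept. Settings chosen after seeing the data were leaving out both libraries that stood apart, which gave 2422, 1085 and 1337, then 489, 147 and 1786, and the length correction, which gave 1529, 650 and 879. RLE and upper quartile factors, both filters and counts divided by 4 gave totals from 1422 to 1851. No gene called in the main test changed sign under any of these alternatives, while library totals kept 1203 of the calls and limma at a pseudocount of 1 kept 470. Of 225 called genes in the lists or named, 65 kept their call under every setting. Genes near 3 counts per library, such as the interferon genes after HGF, have folds that bound the change only approximately.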

Other observations

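In several stress and differentiation programmes raised by activin, most members were not called after HGF, although some members rose further. Over all tested genes, 6.78% were raised by activin and 11.3% were higher after HGF than in the controls. Activin had raised 24 of 35 tested genes of the ATF4 and unfolded protein response, 1 fell after HGF and none rose by the edgeR test, and 27 were higher after HGF than in the controls. With library totals 4 fell after HGF. Of 25 NRF2 target and metallothionein genes, activin had raised 13, and after HGF 4 rose and 1 fell (1 and 1 with library totals). Of 24 squamous and cornified envelope genes, activin had raised 14, and after HGF 6 rose and 2 fell, with 2 rises and 2 falls without activin + HGF replicate 1. The list median was 0.69 (0.37 with library totals), and 4 of the called members had moved the same way with activin. The small proline-rich protein gene SPRR2D was 1 of the 2 that fell, from 27.2, 48.3 and 37.3 CPM to 13, 13.7 and 13.5 CPM, with 0 in the controls. None of 19 Wnt target and intestinal stem cell genes was called by the edgeR test.

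Over 280 KEGG terms of 20 to 300 tested genes, described by shares with no test, the terms with the largest share of risen genes were Ribosome (28.0% of 132 genes), Intestinal immune network for IgA production (21.4% of 28) and Allograft rejection (19.0% of 21). Those with the largest share of fallen genes were Homologous recombination (23.1% of 39), Cytosolic DNA-sensing pathway (15.8% of 38), Toll-like receptor signaling pathway (15.3% of 72) and RIG-I-like receptor signaling pathway (15.1% of 53). The share over all tested genes was 3.87% risen and 4.21% fallen. The E2F element, TTTCCCGC or TTTGGCGC on either strand, was in 35.6% of 45 matched promoters of DNA replication genes against 3.43% of all promoters. Among the replication genes it was in 20.0% of 5 promoters of genes that fell after HGF and in 37.5% of 40 of genes not called.

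Of 37 tested genes of the mitochondrial chromosome, 10 fell after HGF and 2 rose. Among its 22 transfer RNA genes 9 fell and none rose by the edgeR test. The mitochondrially encoded ribosomal RNA gene MT-RNR1 rose. It was at 3136, 3199 and 3448 CPM in the controls, at 981, 1291 and 1132 CPM with activin and at 8857, 3478 and 2959.8 CPM after HGF, a log2 fold change of 2.17 at an adjusted p of 0.0071. In these ribosomal-RNA-depleted libraries the efficiency of depletion was not measured, and its part in this value was not tested.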
